A study of Mus musculus with 13 samples.

Results

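The thyroid hormone and retinoid receptors examined here were 8 genes: the thyroid hormone receptors Thra and Thrb, the retinoid X receptors Rxra, Rxrb and Rxrg, and the retinoic acid receptors Rara, Rarb and Rarg. They were taken by gene symbol from the 55536 genes of the broader deposited count table, and all 8 were among the 16125 genes that passed the filter on low counts. RNA came from Pcm1(+) nuclei sorted from the ventricles of C57BL/6J mice, with 3 to 6 ventricles pooled in each library. Each mouse had received 1 intraperitoneal injection of an adeno-associated virus of serotype 6 at postnatal day 1, and tissue was collected at postnatal day 56. In the control groups the vector carried no insert, and in the PGR groups it carried the human progesterone receptor. There were 4 control libraries from females (Con_F), 3 control libraries from males (Con_M), 3 PGR libraries from females (PGR_F, numbered 1, 2 and 4) and 3 PGR libraries from males (PGR_M). All groups, controls included, were infected, so none of them is an untreated heart. No promoter for the insert is named in the labels.

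Thyroid hormone and retinoic acid receptors are nuclear transcription factors that bind DNA mostly as dimers with a retinoid X receptor. Without hormone they hold corepressors at their target genes, and with hormone they recruit coactivators. In the heart, thyroid hormone controls the switch between myosin heavy chains and the calcium pump of the sarcoplasmic reticulum, and retinoic acid is needed during heart formation. The retinoid X receptors also pair with the PPAR and LXR receptors, which sense fatty acids and oxysterols.

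The libraries held 31761146 to 86330792 counts each, and every member had at least 120 counts in every library. Markers of cardiomyocytes summed to 76275.9 to 95463.4 CPM per library (counts per 1000000 in the library, TMM scaled), against 26.3 to 59.9 for endothelium and 26.8 to 103.9 for fibroblasts. The lymphocyte gene Cd3e was at 0 in the Con_M libraries, and the adipocyte gene Lep was at 0 in Con_M and PGR_F. In bulk nuclei, a smaller number of cells of a type and less RNA per cell cannot be told apart. The labels do not say whether libraries share animals beyond the pools, so p-values measure the spread between these libraries. The mouse Pgr gene had 1 count in each Con_F library, 0 to 1 in Con_M, 1 to 6 in PGR_F and 0 to 8 in PGR_M. The human insert was not analysed here, so its expression was not checked.

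The 8 genes differ widely in size, which bears on how counts can be read. The deposited counts cover each gene from its start to its end with introns included, so raw CPM favours long genes, and levels are compared between genes only as CPM per kb of that interval. All positions are on GRCm38. Thra lies on chr11:98740638-98769006 and Rara on chr11:98927818-98974942, both on the plus strand with 159 kb between them. Rarb lies on chr14:16430839-16819156 on the minus strand and Thrb on chr14:17660261-18038090 on the plus strand, 841 kb apart. Rxra lies on chr2:27676440-27762957, Rxrb on chr17:34031812-34038399 and Rxrg on chr1:167598384-167639623, all on the plus strand. Rarg lies on chr15:102234938-102257517 on the minus strand. Annotated exons make up 60.3% of the 6.59 kb Rxrb interval but only 1.96% of the 378 kb Thrb interval and 1.36% of the 388 kb Rarb interval. The share of the Thrb and Rarb counts that came from introns was not measured here.

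Some members overlap other genes. The last part of Thra overlaps Nr1d1, the clock repressor Rev-erb alpha, on the opposite strand over 1075 bases, which is 3.79% of Thra. Rarb overlaps Top2b, a DNA topoisomerase, on the opposite strand over 4624 bases, and an antisense gene, Gm48321, covers 24% of Thrb. Gm48321 had 197 counts over all libraries where Thrb had 745092. Among protein-coding genes that lie wholly inside another protein-coding gene, 207 of 541 on the opposite strand and 0 of 382 on the same strand had a mean count of at least 10. The counts thus followed the strand, so the antisense partners named here could be told apart from the members.

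Start-site windows of 300 bases (250 before and 50 after the start, RefSeq, GRCm38.p6) were matched for 7 of the 8 members, all but Thra, giving 15 windows. The Rarb stretch below is shown because it holds the direct repeat for which this gene is the textbook example of a retinoic acid target. The stretches of Rxrb, Rara and Rxra are the 100 bases before a start site, shown because these 3 genes had the lowest p-values of the 8 for the vector in females and on average. The Rarb stretch (chr14:16575507-16575536, minus strand) runs from -60 to -31 from the start. All 30 bases of it lie within an untranslated region annotated by GENCODE. Its capitals, at -53 to -37, mark the direct repeat with a spacer of 5 bases. In the other stretches (Rxrb chr17:34031712-34031811, Rara chr11:98937596-98937695, Rxra chr2:27677101-27677200, all on the plus strand) capitals mark GGGCGG or its reverse complement CCGCCC, the GC box bound by Sp-type factors.
Rarb: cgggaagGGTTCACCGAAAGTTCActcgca
Rxrb: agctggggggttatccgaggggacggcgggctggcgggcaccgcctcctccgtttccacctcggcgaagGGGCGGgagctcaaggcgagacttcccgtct
Rara: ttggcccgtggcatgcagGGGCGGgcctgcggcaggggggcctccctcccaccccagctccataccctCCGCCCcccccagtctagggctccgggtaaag
Rxra: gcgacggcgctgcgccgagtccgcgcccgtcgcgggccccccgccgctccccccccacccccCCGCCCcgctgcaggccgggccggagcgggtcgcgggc

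A direct repeat with a spacer of 5 was found, on either strand, in 0.0974% of all 32851 windows and in 1 of the 15 member windows, that of Rarb. Direct repeats with spacers of 1 to 4 bases were in 0 of the 15. The half-site AGGTCA was in 5 of 15 member windows and 16.3% of all windows, and AGTTCA, which also ends the Rarb repeat, in 4 of 15 and 14.0%. GGGCGG was in 8 of 15 and 35.7%. ACANNNTGT, the core of the inverted repeat that steroid receptors bind, was in 0 of 15 and in 6.85% of all windows. These are matches of letters in short windows and say nothing about binding. The 250 bases before the start had a median GC content of 52.4% over all windows. Those of the members ranged from 44.0% for a Thrb window to 82.4% for a Rxrb window, with Rxra at 81.2%.

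The thyroid hormone receptors were the most abundant members per kb and the retinoic acid receptors the least. Averaged over the 13 libraries, Thra stood at 3.49 CPM per kb and Thrb at 3.13, above 93.8% and 92.7% of tested protein-coding genes. Rxrb followed at 2.39 CPM per kb, Rxrg at 1.54 and Rxra at 1.53. Rarb stood at 0.828, Rara at 0.587 and Rarg at 0.191 CPM per kb, and Rarg was above 29.6% of tested protein-coding genes. Every library held the same order within the retinoic acid receptors, Rarb above Rara above Rarg, and all 3 were below the other 5 genes.

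**Figure D1:**
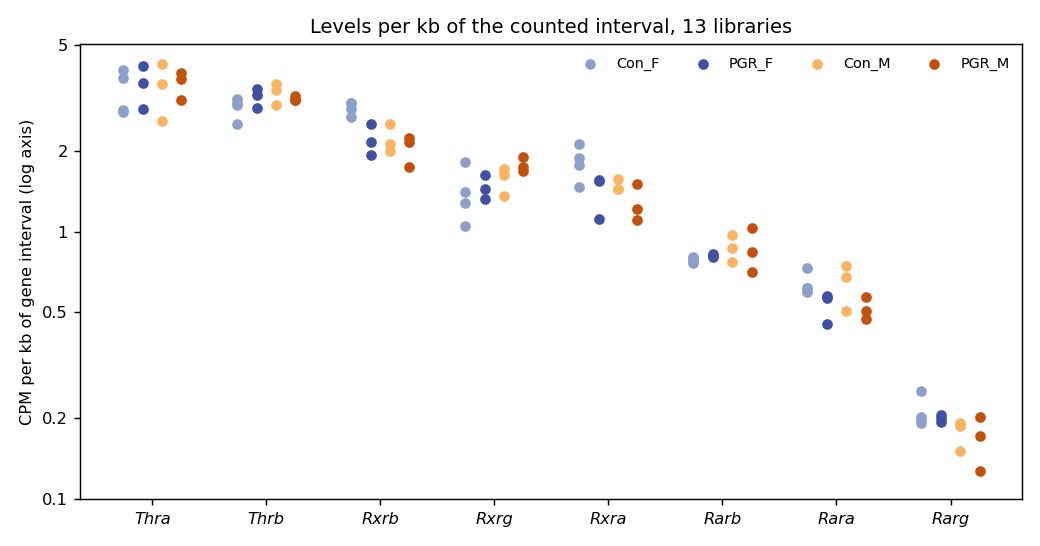
Level of each receptor in each library, as CPM per kb of the counted gene interval on a log axis, with genes ordered by their mean over 13 libraries and points coloured by group. Thra and Thrb lie at the top between 2.53 and 4.23, and Rarg lies lowest, between 0.127 and 0.253.

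Neighbours in this order were not all distinct. Thra was above Thrb in 8 of 13 libraries, and each was above Rxrb in 11 of 13. Rxrb was above Rxra in 13 of 13 libraries and above Rxrg in 12 of 13, while Rxra was above Rxrg in only 5 of 13. The full order Thra, Thrb, Rxrb, Rxrg, Rxra, Rarb, Rara, Rarg was seen in 6 of 13 libraries. Thra and Thrb, Rxrb and either of these, and Rxrg and Rxra were thus not separated beyond their spread. The intervals count introns, and long introns can lower or raise a per-kb value, so these levels are not those of mature mRNA.

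Within classes, Thra made up 50.7% to 53.2% of the thyroid hormone receptor signal per kb in the group means, with single libraries between 42.1% and 61.4%. For the retinoid X receptors the shares per kb rest on the division by interval length. Annotated exons make up 60.3% of the Rxrb interval but 6.31% of that of Rxra and 5.57% of that of Rxrg. In CPM, Rxrb was the lowest of these, at 19.1 in Con_F against 157.4 for Rxra and 57.3 for Rxrg. Rxrb made up 47.5% ± 2.62 (SD, n = 4) of the retinoid X receptor signal in Con_F, 42% ± 2.27 (SD, n = 3) in Con_M, 43.4% ± 2.74 (SD, n = 3) in PGR_F and 40.1% ± 2.99 (SD, n = 3) in PGR_M. The 4 Con_F libraries, at 44.9% to 50.8%, lay above those of Con_M, at 39.9% to 44.4%, and overlapped those of PGR_F, at 40.3% to 45.6%. Rxrg, the form enriched in striated muscle, made up 22.8% ± 5.52 (SD, n = 4) in Con_F, 29.7% ± 1.19 (SD, n = 3) in Con_M, 28.9% ± 1.68 (SD, n = 3) in PGR_F and 35% ± 4.57 (SD, n = 3) in PGR_M. The Con_F libraries, at 17.5% to 30.6%, overlapped both Con_M and PGR_F, while the lowest PGR_M library, at 31%, was above all other libraries. Rarb made up 48.1% to 55.4% of the retinoic acid receptor signal in the group means. The summed retinoid X receptor signal was 6.11 ± 0.302 CPM per kb (SD, n = 4) in Con_F, 5.28 ± 0.443 (SD, n = 3) in Con_M, 5.09 ± 0.541 (SD, n = 3) in PGR_F and 5.12 ± 0.349 (SD, n = 3) in PGR_M. The lowest Con_F library, at 5.93, exceeded the highest library of Con_M (5.7), PGR_F (5.71) and PGR_M (5.46), so that Con_F stood apart from the control males as well, and the other 3 groups overlapped. This sum was not tested.

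The first question was whether the progesterone receptor vector changed receptor RNA against the empty vector, in females, in males and on average over both. No member passed an adjusted p of 0.05 in any of these comparisons by edgeR's quasi-likelihood test, and DESeq2 and limma-voom called none of the 8 either. Rxra, Rxrb and Rara had negative estimates in both sexes. Averaged over the sexes these were 0.816-fold, 0.841-fold and 0.818-fold, each with an unadjusted p under 0.05 that did not survive adjustment. Thra, Thrb, Rarb and Rarg had averaged estimates between 0.946-fold and 1.05-fold.

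Among the thyroid hormone receptors, Thra, the main form in cardiomyocytes by textbook knowledge, stood at 81.1, 79.7, 114.5 and 106.9 CPM in Con_F and at 102.1, 81.7 and 118.5 CPM in PGR_F. In males it stood at 73.5, 101.5 and 119.9 CPM in Con_M and at 106.2, 111.5 and 88.2 CPM in PGR_M. Each group spread widely and all 4 overlapped. The averaged log2 fold change was 0.07 (SE 0.13, 95% interval -0.22 to 0.36, adjusted p = 0.86). Nr1d1, which overlaps its end, had an averaged log2 fold change of 0.09 (SE 0.14), so the neighbour on the other strand did not pass the test either.

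Thrb, the second receptor for the hormone, stood at 1145.6, 1126.4, 957.3 and 1191.1 CPM in Con_F and at 1225.4, 1289.2 and 1098.5 CPM in PGR_F. Male libraries gave 1346.3, 1277.5 and 1129.0 CPM in Con_M and 1175.3, 1176.6 and 1214.6 CPM in PGR_M. The groups overlapped in both sexes, and the female and male estimates had opposite signs, at 0.12 (SE 0.09) and -0.07 (SE 0.10) on the log2 scale. The averaged value of 0.03 had a 95% interval of -0.12 to 0.17, the narrowest of the 8.

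Among the retinoid X receptors, Rxra, the form best known from heart development, stood at 163.6, 154.4, 184.5 and 127.0 CPM in Con_F and at 134.4, 96.9 and 134.9 CPM in PGR_F. PGR_F replicate 2 was the lowest, and the groups overlapped because Con_F replicate 4 lay below the other 3 controls. In the male groups it stood at 125.2, 136.5 and 125.4 CPM in Con_M and at 130.8, 105.5 and 96.3 CPM in PGR_M, where the groups also overlapped. The log2 fold change was -0.37 in females (SE 0.14, 95% interval -0.67 to -0.07, adjusted p = 0.393). In males it was -0.22 (SE 0.15, adjusted p = 0.776), and the average was -0.29 (SE 0.10, adjusted p = 0.219). Without PGR_F replicate 2 the female value was -0.22 (adjusted p = 0.581), and without Con_F replicate 4 it was -0.46. The male value was -0.12 (adjusted p = 0.908) without PGR_M replicate 3 and -0.36 (adjusted p = 0.64) without PGR_M replicate 1.

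Rxrb, the broadly expressed form, stood at 20, 18.9, 19.9 and 17.7 CPM in Con_F and at 12.8, 14.2 and 16.6 CPM in PGR_F. All 4 Con_F libraries were above all 3 PGR_F libraries, and above every male library too. Among males it was at 13.2, 14.0 and 16.7 CPM in Con_M and at 14.9, 14.3 and 11.5 CPM in PGR_M, and these groups overlapped. The female log2 fold change was -0.39 (SE 0.11, 95% interval -0.64 to -0.15, 0.762-fold, adjusted p = 0.309), rank 193 by p of 16125 genes. The male value was -0.11 (SE 0.12, adjusted p = 0.888) and moved to 0 without Con_M replicate 3 and to -0.18 without Con_M replicate 1. The average was -0.25 (SE 0.08, adjusted p = 0.201).

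Rxrg, the muscle-enriched form, stood at 43.2, 52.6, 58.2 and 75.4 CPM in Con_F and at 54.4, 59.9 and 67.2 CPM in PGR_F. In males it stood at 56.2, 67.1 and 70.9 CPM in Con_M and at 69.7, 72.0 and 78.4 CPM in PGR_M. The Con_F libraries spanned all PGR_F libraries, and in males only the lowest PGR_M library fell within the control range. The averaged log2 fold change was 0.13 (SE 0.11, 95% interval -0.10 to 0.36, adjusted p = 0.614), of opposite sign to those of Rxra and Rxrb.

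Among the retinoic acid receptors, Rara, the ubiquitous form, stood at 29.1, 29.0, 34.5 and 28.1 CPM in Con_F and at 27.2, 21.4 and 26.7 CPM in PGR_F. The female groups did not overlap, with the lowest control, at 28.1 CPM, just above the highest PGR_F library, at 27.2 CPM. Among males it was at 23.8, 31.9 and 35.1 CPM in Con_M and at 26.8, 23.8 and 22.2 CPM in PGR_M, where Con_M replicate 1 lay among the PGR_M libraries. The log2 fold change was -0.27 in females (SE 0.13, adjusted p = 0.465) and -0.31 in males (SE 0.14, adjusted p = 0.632). The average was -0.29 (SE 0.09, 95% interval -0.49 to -0.09, adjusted p = 0.19), the lowest adjusted p of the 8. The female value was -0.16 (adjusted p = 0.686) without PGR_F replicate 2 and -0.33 without PGR_F replicate 1. The male value was -0.19 (adjusted p = 0.756) without Con_M replicate 3 and -0.46 without Con_M replicate 1.

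Rarb, itself induced by retinoic acid through the repeat printed above, stood at 310.7, 312.3, 302.4 and 296.1 CPM in Con_F and at 319.8, 315.5 and 312.0 CPM in PGR_F. Male libraries gave 298.8, 338.7 and 375.9 CPM in Con_M and 273.4, 324.6 and 400.6 CPM in PGR_M. Females were tightly grouped, while the 3 PGR_M libraries spanned the whole range of all 13. The averaged log2 fold change was 0.01 (SE 0.08, 95% interval -0.16 to 0.18, adjusted p = 0.959). Rarg, the form best known from skin and cartilage, ranged from 2.87 CPM in PGR_M replicate 3 to 5.72 CPM in Con_F replicate 3, with an averaged log2 fold change of -0.08 (SE 0.12, adjusted p = 0.792).

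**Figure D2:**
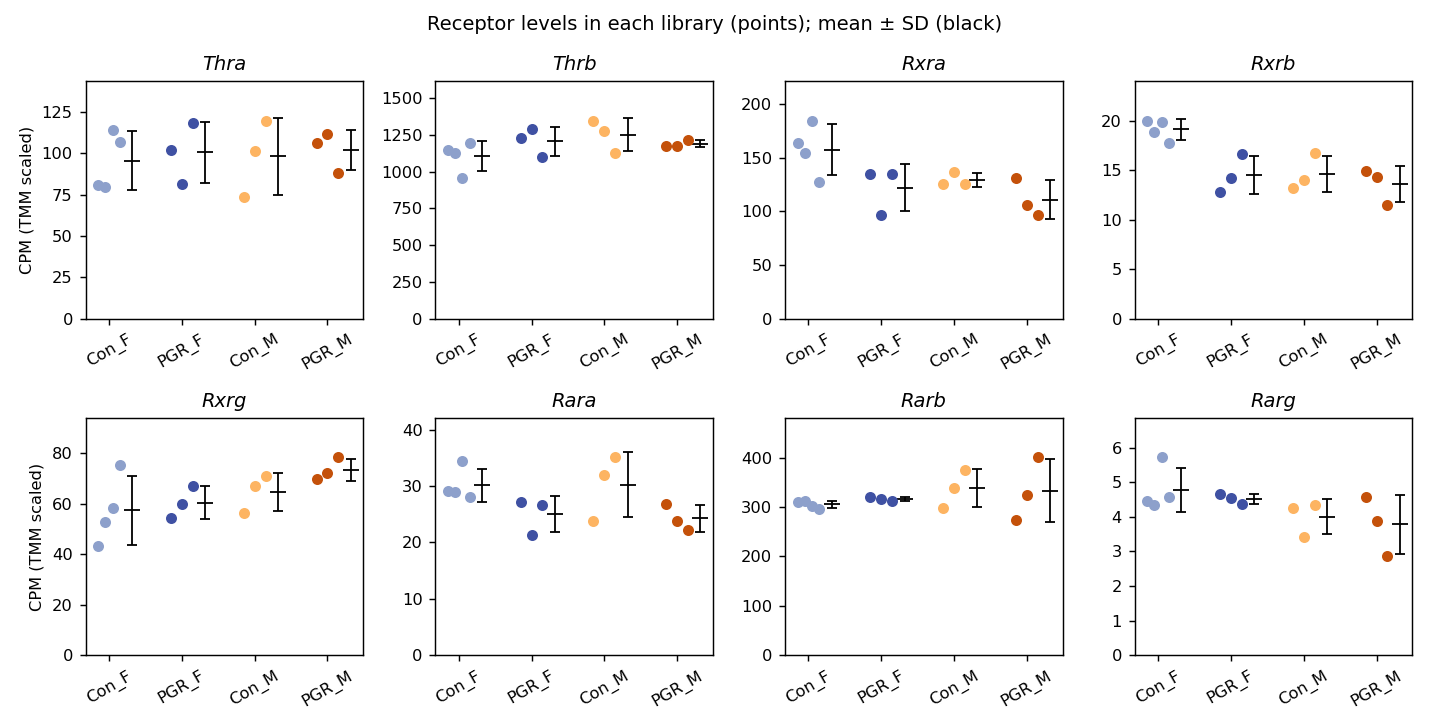
CPM (TMM scaled, axes from 0) of each receptor in each library, by group, with the mean and SD of the group in black. The 4 Con_F libraries of Rxrb, between 17.7 and 20, lie above all other libraries, and the groups of Thra overlap throughout.

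The counts of members were set against those of all genes tested. In females 0 of 8 members and 0% of the 16125 genes passed the adjusted threshold, which 81 genes passed by DESeq2. Unadjusted, edgeR had 1765 genes with p under 0.05. At an unadjusted p under 0.05, 2 of 8 members were lower and 0 higher, against 5.15% and 5.8% of all genes, and for 2 of 8 the groups did not overlap in the lower direction, against 4.07%. In males 0 of 8 and 0% of all genes passed the adjusted threshold, which 29 genes passed by DESeq2. Unadjusted, edgeR had 1206 genes with p under 0.05. There 1 of 8 members was lower at an unadjusted p under 0.05, against 3.94%, and no member had groups that did not overlap, against 15.7% of all genes in either direction. For the average 0 of 8 passed, against 0.0062% of all genes, which is 1 gene, Pmepa1, named here after its value was seen. At an unadjusted p under 0.05, 3 of 8 members were lower and 0 higher in the average, against 7.45% and 7.37% of all genes. The averaged comparison uses the same libraries as the female and the male one, so it is no separate evidence. The median log2 fold change of the 8 was -0.02 in females, -0.08 in males and -0.03 on average, where that of all genes was 0 in each.

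**Figure D3:**
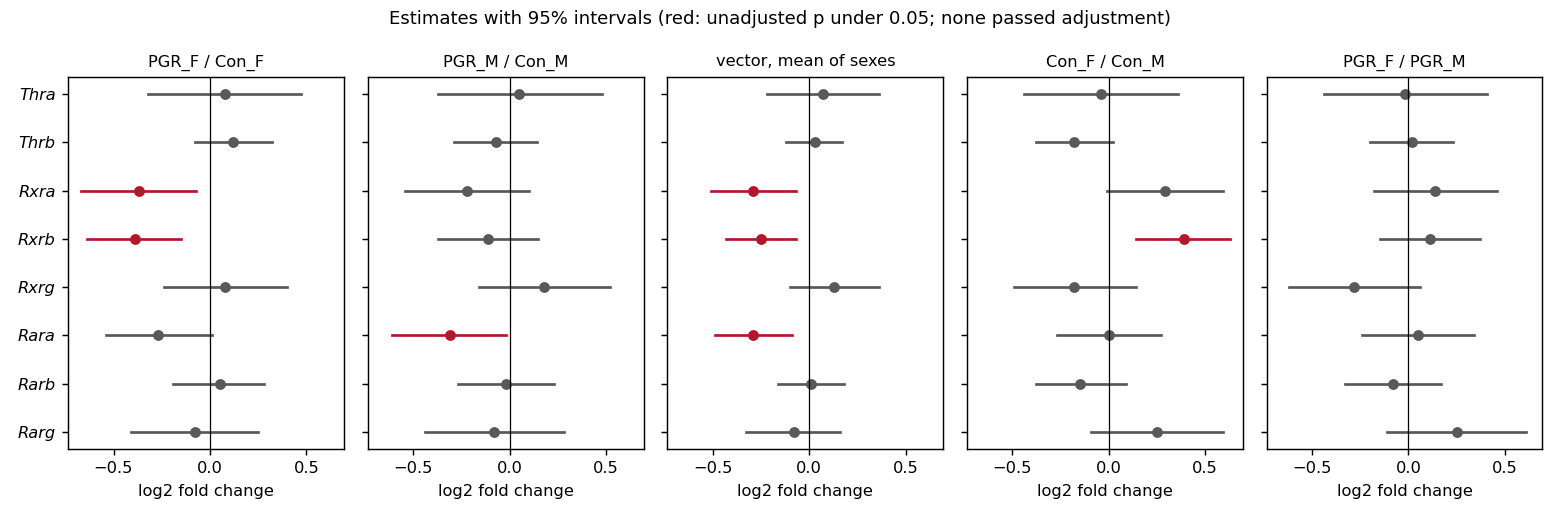
Log2 fold change of each receptor with its 95% interval in 5 comparisons, in red where the unadjusted p was under 0.05. Rxra, Rxrb and Rara lie left of 0 in all 3 vector panels, Rxrb lies right of 0 between the sexes under the control vector, and no estimate passed after adjustment.

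GC content moved with the female estimates, and the members differ in it. The longest annotated transcripts of Thra, Rxra, Rara and Rarg hold 59.8%, 57.0%, 59.2% and 58.8% GC and that of Rxrb 61.4%, while those of Thrb, Rarb and Rxrg hold 44.1%, 47.8% and 54.6%. In females the median log2 fold change of protein-coding genes was 0.07 under 45% GC, -0.12 at 55 to 60% and -0.19 above 60%, where 17.8% of genes were lower at an unadjusted p under 0.05. In males the medians of these 3 classes were -0.01, 0.01 and 0.01. With the trend of each library on gene length and GC removed, the female log2 fold change of Rxrb was -0.23 (adjusted p = 0.447), that of Rxra -0.27 (adjusted p = 0.543) and that of Rara -0.12 (adjusted p = 0.76). On average over the sexes the values were then -0.16 for Rxrb (adjusted p = 0.213), -0.26 for Rxra (adjusted p = 0.238) and -0.22 for Rara (adjusted p = 0.238). The female estimates of Rxrb and Rara were thus closer to 0 after this removal, more so than that of Rxra. The male value of Rara was -0.32 (adjusted p = 0.496) after the removal, close to its value before. Markers of other cells were compared in the same groups: in females 10 of 10 endothelial markers had negative estimates, with a median of -0.24, and summed to 48.7 to 59.9 CPM in Con_F and 33.6 to 59.2 CPM in PGR_F. In males 10 of 10 had positive estimates, and the sums were 26.3 to 45 CPM in Con_M and 29.7 to 51.7 CPM in PGR_M. Of the 8 cardiomyocyte markers, 7 had negative estimates in females, with a median of -0.17, and 5 in males, with a median of -0.08. On average over the sexes 6 of 8 were negative, with a median of -0.13. They summed to 80674.3 to 91810.1 CPM in Con_F and 76275.9 to 83082.9 CPM in PGR_F, and to 82485.1 to 91104.6 CPM in Con_M and 81618.2 to 95463.4 CPM in PGR_M. None of these markers was at 0 in a whole group, and the part of GC content and of endothelial or cardiomyocyte RNA in the receptor estimates was not tested beyond these values.

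**Figure D4:**
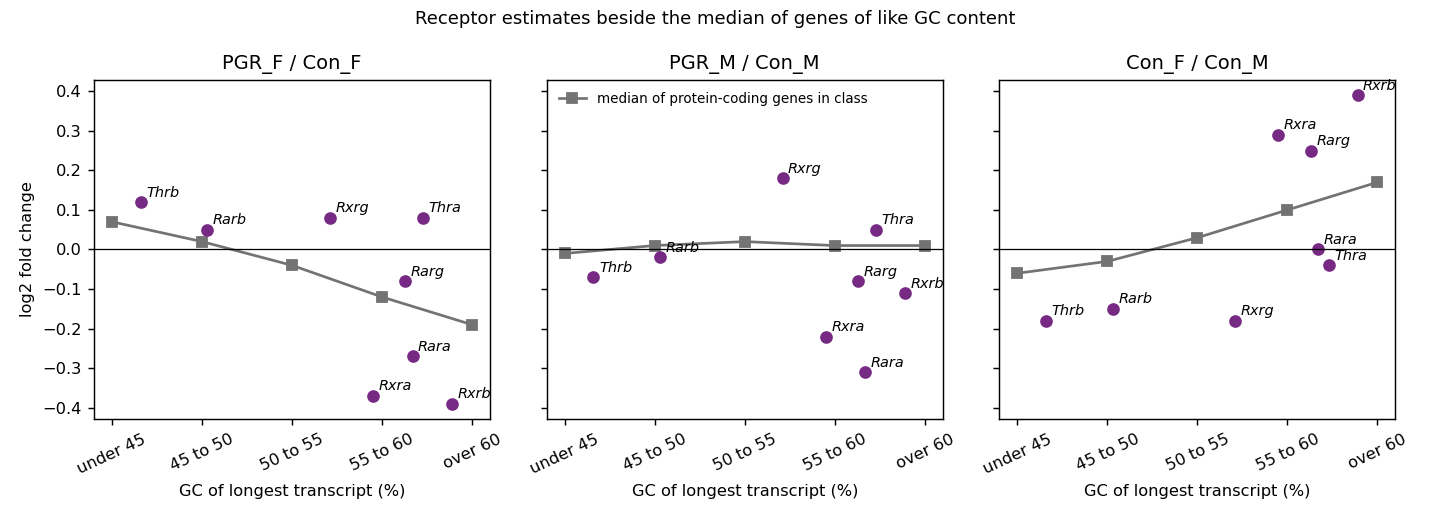
Log2 fold change of each receptor (purple points, placed by the GC content of its longest transcript in percent) beside the median of tested protein-coding genes in each GC class (grey squares), in 3 comparisons. In females the class medians run from 0.07 to -0.19 and in males from -0.01 to 0.02, and Rxra, Rxrb and Rara lie below the medians in both sexes.

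The second question was whether the vector acted differently in the sexes. In the test of this difference 0 of 8 members and 0% of all genes passed the adjusted threshold, which 1 gene passed by DESeq2. Unadjusted, edgeR had 525 genes with p under 0.05. Nearest to the threshold among members was Rxrb, with a female minus male difference of -0.28 on the log2 scale (SE 0.17, 95% interval -0.64 to 0.07, adjusted p = 1). For Thra the interval ran from -0.56 to 0.60 and for Rxrg from -0.57 to 0.37. The Rxrb groups did not overlap in females and did in males, but the vector effect was not shown to differ between the sexes.

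The third question was whether females and males differed under the same vector. Under the control vector 0 of 8 members passed, against 0.229% of all genes. Rxrb was 19.1 ± 1.07 CPM in Con_F (SD, n = 4) and 14.6 ± 1.81 in Con_M (SD, n = 3), a log2 fold change of 0.39 (SE 0.12, 95% interval 0.14 to 0.63, adjusted p = 0.207). Its groups did not overlap, nor did those of Rarg, at 4.77 ± 0.638 CPM (SD, n = 4) and 4 ± 0.504 (SD, n = 3). For Rarg the lowest Con_F library, at 4.34 CPM, was barely above the highest Con_M library, at 4.33 CPM. The log2 fold change of Rarg was 0.25 (SE 0.16, adjusted p = 0.542), and 0.14 with length and GC trends removed. Rxrb and Rarg were both higher in females, so that 2 of 8 members had such groups against 6.41% of all genes. Rxrb was the only 1 of 8 higher at an unadjusted p under 0.05, where 7.36% of all genes were. Rxra had a log2 fold change of 0.29 (adjusted p = 0.422) and Thrb one of -0.18 (adjusted p = 0.451). The same 4 Con_F libraries enter the female vector comparison, so a high Rxrb in them shows in both.

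Other measures differed between Con_F and Con_M as well. Above 60% GC, the median over protein-coding genes was 0.17 on the log2 scale, and 19.9% were higher at an unadjusted p under 0.05. With the length and GC trend removed, the value of Rxrb was 0.25 (adjusted p = 0.251). The 10 endothelial markers summed to 48.7 to 59.9 CPM in Con_F and 26.3 to 45 CPM in Con_M, and 10 of 10 had positive estimates. The 9 fibroblast markers summed to 67 to 103.9 CPM and 26.8 to 57.3 CPM, and 9 of 9 had positive estimates. No marker of either list was at 0 in all libraries of a group. Sums of smooth muscle and pericyte markers overlapped, at 44.1 to 51.7 CPM in Con_F and 33.6 to 45.1 CPM in Con_M. Those of macrophage markers overlapped too, at 11.3 to 16.7 CPM and 7.78 to 12.7 CPM. The part that RNA of these other cell types has in the Rxrb and Rarg values was not tested.

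Under the PGR vector 0 of 8 members passed between the sexes, against 0.143% of all genes, and none had an unadjusted p under 0.05, against 7.25% of all genes. Rxrg was 60.5 ± 6.43 CPM in PGR_F (SD, n = 3) and 73.4 ± 4.51 in PGR_M (SD, n = 3), and its 3 female libraries were all below the 3 male ones. This was 1 of 8 members, against 6.41% of all genes, and the log2 fold change of -0.28 had an adjusted p of 0.804. Rxrb, at 14.5 ± 1.93 and 13.5 ± 1.80 CPM (SD, n = 3 each), overlapped between PGR_F and PGR_M.

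Genes that handle the hormones were followed next, from lists chosen for their textbook roles. None passed an adjusted p of 0.05 for the vector in females, in males or on average. Of 10 genes for entry and metabolism of thyroid hormone, 7 could be tested and none had an unadjusted p under 0.05 on average or in females. In males 2 of the 7 were higher and 0 lower at that threshold, against 3.53% and 3.94% of all genes. The median of the 7 was 0.09 in females, 0.27 in males and 0.06 on average, with 4, 4 and 6 positive estimates. Slc7a8, an amino acid and thyroid hormone transporter, stood at 3.77 ± 0.177 CPM in the male controls against 4.84 ± 0.297 in PGR_M (SD, n = 3 for both). These groups did not overlap, nor did those of 7.2% of all genes in the higher direction in males. In females Slc7a8 was at 3.58 ± 0.548 CPM in Con_F (SD, n = 4) and 3.43 ± 0.256 in PGR_F (SD, n = 3), which overlapped. Its log2 fold change was 0.36 in males (SE 0.14, adjusted p = 0.611), -0.06 in females (SE 0.14, adjusted p = 0.903) and 0.15 on average (SE 0.10, adjusted p = 0.505), and the female minus male difference was -0.42 (SE 0.20, adjusted p = 1). Slc16a10, a transporter of aromatic amino acids and thyroid hormone, had an averaged value of -0.09 (SE 0.06, adjusted p = 0.486). Dio2, the deiodinase that makes the active hormone, was at 0.381 ± 0.101 CPM in Con_F (SD, n = 4) and 0.413 ± 0.0881 in PGR_F (SD, n = 3), from 7 to 27 counts per library over all groups. The other deiodinases were nearly absent, with 0 counts for Dio1 and 3 for Dio3 over all libraries, and the hormone-binding crystallin Crym had 17.

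Thyroid hormone targets had mixed signs. Of 19 genes known to be induced by the hormone, 7 had positive and 12 negative estimates for the vector in females, with a median of -0.02. In males 14 were positive and 5 negative, with a median of 0.1, and on average 12 were positive and 7 negative, with a median of 0.06, where the median of all genes was 0 in each. Between the sexes under the PGR vector 16 of the 19 had lower estimates in females, against 46.9% of all genes. Their median was -0.13 where that of all genes was 0.01. Under the control vector 11 of the 19 were higher and 8 lower in females, with a median of 0.06. The female minus male difference of the vector effect was negative for 14 of 19, against 49% of all genes. Its median was -0.11, and none of the 19 passed an adjusted p of 0.05 for it. Whether the list as a whole differed between the sexes was not tested. Myh6, the fast myosin heavy chain of the adult mouse ventricle, had an averaged log2 fold change of -0.18 (SE 0.10, adjusted p = 0.405), and Atp2a2, the calcium pump SERCA2, -0.01 (SE 0.06). Klf9, a direct target in many tissues, had 0.07 (SE 0.08) and Me1, malic enzyme, 0.19 (SE 0.13). Ucp3, a mitochondrial carrier, had 0.75 (SE 0.29, adjusted p = 0.28). Of the 4 repressed genes, 3 had negative averaged estimates, with a median of -0.12. Myh7, the slow myosin heavy chain, had -0.43 (SE 0.28, adjusted p = 0.502), Adcy5, the cardiac adenylyl cyclase, -0.20 (SE 0.06, adjusted p = 0.154) and Slc8a1, the sodium-calcium exchanger, -0.03 (SE 0.09). Pln, the inhibitor of SERCA2, was the exception at 0.20 (SE 0.08, adjusted p = 0.281).

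Genes of retinoid handling were likewise mixed. Of 21 listed, 14 could be tested, 9 had positive and 5 negative averaged estimates, and the median was 0.09. Lrat, which stores retinol as esters, had an averaged log2 fold change of 0.76 (SE 0.26, adjusted p = 0.212) on 19 to 117 counts per library. Dgat1, an acyltransferase that can also esterify retinol, had -0.25 (SE 0.07, adjusted p = 0.139). Its female groups did not overlap, with PGR_F lower, against 4.07% of all genes. Dhrs3, which turns retinal back to retinol and is induced by retinoic acid, had 0.31 (SE 0.17, adjusted p = 0.428). Rdh10, which makes retinal, went from 22.1 ± 1.83 CPM in Con_F (SD, n = 4) to 25.2 ± 1.04 in PGR_F (SD, n = 3). Its female groups did not overlap either, but in the higher direction, against 4.17% of all genes. In males it was at 25.9 ± 1.14 CPM with the control vector and 24.9 ± 0.635 with the PGR vector (SD, n = 3 for both), and the groups overlapped. The log2 fold change of Rdh10 was 0.19 in females (SE 0.08, adjusted p = 0.416), -0.06 in males (SE 0.08, adjusted p = 0.913) and 0.06 on average (SE 0.06). The retinoic acid synthase Aldh1a2 had -0.34 (SE 0.28) on 9 to 71 counts per library, and the degrading enzyme Cyp26b1 0.29 (SE 0.19). Stra6, the retinol uptake receptor, had 64 counts in all and was not tested. Of 15 genes induced by retinoic acid, 7 could be tested, with 3 positive and 4 negative estimates. Among these Zbtb16, a zinc finger repressor, had -0.85 (SE 0.41, adjusted p = 0.37) and Tgm2, a transglutaminase, -0.43 (SE 0.25, adjusted p = 0.451).

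Among other receptors that pair with the retinoid X receptors, 9 of 11 could be tested. Ppard, a fatty acid sensor, stood at 139.9 ± 24.8 CPM in Con_F (SD, n = 4) and 111.1 ± 6.02 in PGR_F (SD, n = 3), and 125.7 ± 7.68 in the male controls against 108.1 ± 3.01 in PGR_M (SD, n = 3 for both). Its groups did not overlap in either sex, with PGR lower, against 4.07% of all genes in females and 8.48% in males. The averaged log2 fold change was -0.28 (SE 0.08, adjusted p = 0.146). Ppara, the main fatty acid sensor of the heart, had -0.27 (SE 0.10, adjusted p = 0.238), and Nr1h3, the oxysterol receptor LXR alpha, -0.21 (SE 0.08, adjusted p = 0.258). The immediate early receptor Nr4a1 had 1.15 (SE 0.47, adjusted p = 0.296), a gene named after its value was seen. In all, 3 of the 9 were lower and 1 higher at an unadjusted p under 0.05 on average, against 7.45% and 7.37% of all genes. Averaged estimates were positive for 6 of 9, as were 4 in females and 6 in males. Of 14 corepressors and coactivators, 8 had positive and 6 negative averaged estimates, with a median of 0. The corepressor Ncor1 had 0.07 (SE 0.06). Nrip1, a corepressor of many nuclear receptors, had 0.12 (SE 0.07), and the coactivator Ncoa2 0.07 (SE 0.05).

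**Figure D5:**
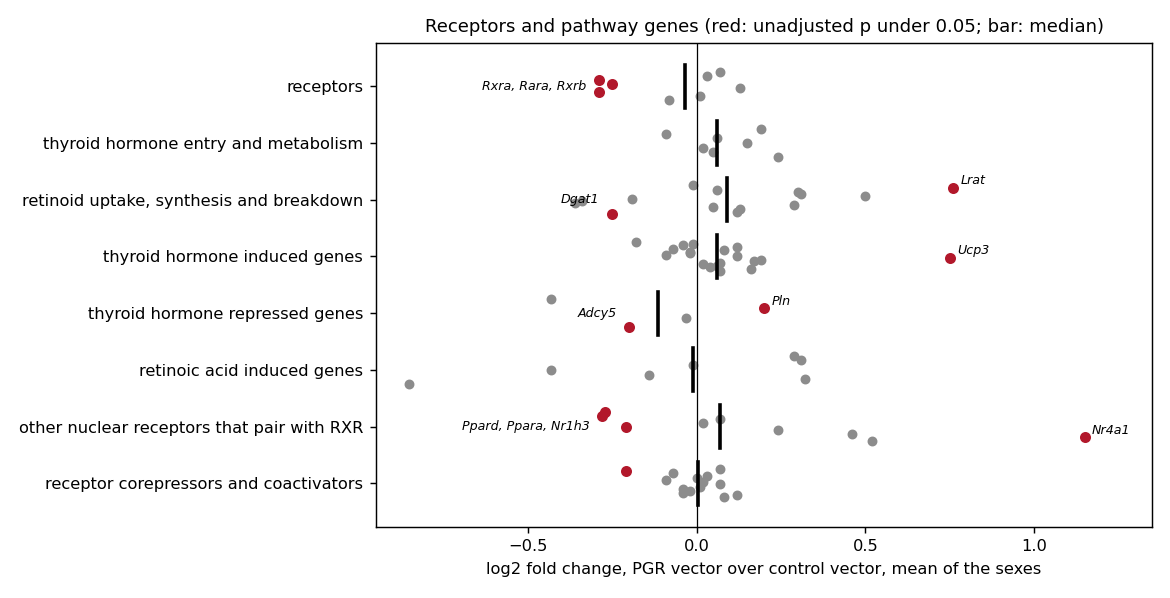
Log2 fold change of the PGR vector over the control vector, averaged over the sexes, for the 8 receptors and the tested genes of 7 pathway lists, with list medians as black bars and genes at an unadjusted p under 0.05 in red. List medians lie between -0.12 and 0.09, and none of these genes passed after adjustment.

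Pairs of members were also compared across libraries. Of 28 pairs compared over 13 libraries on log2 CPM, 3 had an adjusted permutation p under 0.05 by Pearson's r and none by Spearman's rho. Rxra and Rara had r = 0.76 (p = 0.00255, adjusted p = 0.0406, permutation) and rho = 0.73 (p = 0.00603, adjusted p = 0.0844, permutation). After leaving out the 2 libraries farthest from the median of Rxra, Con_F 3 and PGR_M 3, r was 0.62, and on deviations from the group means it was 0.68. Rxra and Rxrb had r = 0.76 (p = 0.0029, adjusted p = 0.0406, permutation) and rho = 0.65 (p = 0.0186, adjusted p = 0.15, permutation). That r was 0.58 without the same 2 libraries and 0.42 within groups. Thrb and Rxrb moved in opposite directions, with r = -0.71 (p = 0.00478, adjusted p = 0.0446, permutation) and rho = -0.76 (p = 0.00326, adjusted p = 0.0844, permutation). There r was -0.63 without Con_F 3 and Con_M 1 and -0.66 within groups. Pairs that did not pass had stronger r within groups, at 0.82 for Thra and Rara, -0.79 for Thrb and Rara and -0.74 for Thra and Thrb. Over all libraries the r of these pairs was 0.49, -0.6 and -0.54, and the r within groups was not tested. These correlations were computed after the library values had been seen, on values with the length and GC trends left in. The part of those trends in them was not tested. The permutation shuffled all 13 libraries across groups, so its p does not belong to the r within groups.

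For each member, the 2 protein-coding genes with the most similar pattern were taken as those with the smallest root mean square difference of centred log2 CPM over the 13 libraries, among 10197 genes. For Thra these were Foxj2 (0.0865) and Gramd4 (0.0873), and for Thrb they were Zcrb1 (0.0514) and Magi2 (0.0529). For Rxra they were Ccdc9 (0.0818) and Meaf6 (0.092), for Rxrb Triobp (0.103) and Cic (0.107), and for Rxrg Aig1 (0.0707) and Epas1 (0.0853). For Rara they were Mrpl14 (0.0945) and Casz1 (0.0991), for Rarb Slc4a4 (0.0663) and Tma16 (0.0668), and for Rarg Kmt5c (0.106) and Prr12 (0.112). No receptor was among the nearest genes of another.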

How the data were processed

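The authors deposited raw counts per gene, whole numbers with 1 column per library, without normalization. STAR 2.5.3a and featureCounts 1.5.0 are named, with the builds GRCm38 and mm10 and no roles, in the submitters' processing notes. The tables give a start, an end and a length per gene (per the file headers), and in all 55536 genes the length equals the whole interval and the interval equals that of GENCODE for GRCm38. From the counts, CPM was computed with TMM scaling and divided by interval length for levels between genes. Tests used edgeR 4.0.16 (R 4.3.3), quasi-likelihood with robust fitting, on the 4 group means of all 13 libraries, with Benjamini-Hochberg adjustment over 16125 genes kept by edgeR's filter on low counts. SEs were derived from each log2 fold change and its F statistic. The fit was tested on simulated data. Alternatives were DESeq2 1.42.0, limma-voom 3.58.1, other size factors, no filter, the smaller deposited table of 15645 genes, only the groups compared, a replicate block, each library left out and, added after seeing the data, removal of length and GC trends. Named genes were the 8 members, role-defining pathway genes, the 3 smallest p-values of each list on average, and the 2 nearest patterns per member. A few genes that this rule names are not reported here. The members and lists were chosen with earlier results of these data known. Columns were matched to libraries by title, and no 2 libraries of a group agreed within sampling noise.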

Additional observations from a re-analysis of the deposited data

Results flagged for a closer look

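In the group of 4 Con_F libraries, replicate 3 stood apart for 2 members. Rara was at 34.5 CPM there, where the nearest of the other 3 was at 29.1 CPM, and the gap was 0.848 of the range, above the 95% critical value of Dixon's test. Rarg was at 5.72 CPM there, where the nearest was at 4.57 CPM, and the gap was 0.83 of the range, also above it. Chance alone marks about 1 in 20 groups, and 8 were looked at.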

How the results depend on the processing

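None of the 8 members passed an adjusted p of 0.05 under any of 21 alternatives, and 47 of 992 log2 fold changes reversed direction. The other 945 include values that round to 0.00, which have no direction to keep or reverse. The number of genes called over all genes did depend on the processing, in this order: females, males, average, difference between the sexes, sex under control, sex under PGR. It was 0, 0, 1, 0, 37 and 23 as reported, 81, 29, 334, 1, 224 and 80 with DESeq2, and 25, 12, 146, 1, 131 and 51 without a count filter. With only the 2 groups compared it was 1 in males, 17 and 56 for sex under control and PGR. With length and GC trends removed it was 1 in males and 2 on average. Leaving out 1 library gave 0 to 20, 0 to 3, 1 to 338, 0, 14 to 99 and 10 to 44, and the count of 338 came without Con_F replicate 4. Deviations of same-numbered libraries had a median correlation of -0.015 over 16 pairs, 3 of them above 0.1. Those of differently numbered libraries had a median of -0.01 over 47 pairs, 10 of them above 0.1. Whether a number marks a shared litter or batch is not given in the labels and cannot be told from these values. With the replicate block 35 genes were called for sex under PGR and 25 under control, with the other counts as reported, and the log2 fold changes of Thrb and Rarb for sex under PGR were -0.02 and 0.01. With length and GC trends removed, signs changed for Rarg in females (0.06), Thrb (-0.02) and Rarb (-0.03) on average, and Thra (0.01) and Thrb (-0.05) for sex under PGR. Leaving out 1 library changed the sign of estimates near 0. In females the ranges were -0.06 to 0.21 for Thra, -0.03 to 0.24 for Rxrg and -0.12 to 0.02 for Rarg. In males they were -0.12 to 0.23 for Thra, -0.17 to 0.10 for Rarb and -0.25 to 0.09 for Rarg. On average they were -0.02 to 0.15 for Thra, -0.01 to 0.05 for Thrb and -0.06 to 0.08 for Rarb. For the difference between the sexes they were -0.15 to 0.19 for Thra, -0.22 to 0.06 for Rxrg, -0.08 to 0.19 for Rara and -0.05 to 0.22 for Rarb. For sex under control the range was -0.21 to 0.13 for Thra. Estimates that rounded to 0.00 as reported were not counted as reversed but also took both signs. They ranged from -0.15 to 0.12 for Rara for sex under control. For Rarg the difference between the sexes ranged from -0.17 to 0.17. The estimates for sex under PGR that follow did not round to 0.00 as reported, and their changes of sign were counted as reversed. On leaving out 1 library they ranged from -0.16 to 0.11 for Thra, -0.03 to 0.07 for Thrb and -0.01 to 0.18 for Rxrb. For Rara the range was -0.02 to 0.15 and for Rarb -0.20 to 0.07. The causes were not tested. With 3 or 4 libraries a group, the 95% intervals of single-sex estimates, such as -0.67 to -0.07 for Rxra in females, set what could be seen.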
